A study of Mus musculus with 15 samples.

Results

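The lysosome genes described here are 43 genes taken by symbol: 20 acid hydrolases, 4 soluble proteins that serve them, 9 membrane proteins, 7 parts of the proton pump, and the 3 transcription factors Tfeb, Tfe3 and Mitf. All 43 were present among the 34245 genes of the differentiation table and among the 25965 genes of the IL4 table. RNA came from bone marrow cells of male C57BL/6 mice of 8 to 10 weeks, grown in CSF-1, the growth factor that macrophages need, and was read on the Ion Torrent platform. Non-adherent precursors had spent 2 days at 0.6 ng/ml CSF-1 in 15% fetal calf serum. Immature macrophages had then spent 4 days at 12 ng/ml CSF-1 in 10% serum. Mature macrophages had spent 1 day at 0.6 ng/ml, 2 days at 12 ng/ml and 7 days at 120 ng/ml CSF-1, and the later steps were again in 10% serum. The IL4 group was mature macrophages kept 48 h more at 120 ng/ml CSF-1 with 20 ng/ml IL4, a cytokine of type 2 immunity, and the unstimulated group was kept the same time at the same CSF-1 without IL4. There were 5 groups of 3 libraries, and the labels number the mouse behind each. Stage, CSF-1 dose and days in culture change together, so their shares in a difference between stages cannot be told apart. The last serum level also differs between precursors and both macrophage stages, and its share there cannot be told apart either.

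Lysosomes are acidic compartments in which macrophages break down what they engulf and their own worn parts. Hydrolases made in the secretory pathway are carried there, and the V-ATPase, a pump with a cytosolic V1 sector that splits ATP and a membrane V0 sector that passes protons, makes the acid they need. TFEB, TFE3 and MITF are related factors that bind a palindrome around CACGTG, called the CLEAR element, near many lysosome genes, and they are controlled largely by phosphorylation and by their place in the cell.

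The promoters of the 43 genes were searched for that element. It is known from lysosome genes, so a higher share among the 43 than among all genes is not a result of these data. RefSeq promoter windows of GRCm38.p6, from 250 bases before to 50 after each start, were matched by symbol to 38 of the 43 genes. Galns, Asah1, Npc1, Atp6v1h and Atp6v1b2 were not matched. The full 10-base CLEAR palindrome, CACGTG with GT before it and AC after it, was in a window of 1 of the 38 genes (2.63%) and of 0.37% of the 27025 genes with a window. The 8-base word TCACGTGA was in 5 of the 38 genes (13.2%) and in 1.12% of all genes. The 6-base word CACGTG was in 10 of the 38 genes (26.3%) and in 8.09% of all genes. Each word reads the same on both strands, and each shorter word lies inside the longer one, so the counts are nested. The 10 genes were the membrane proteins Cln3, Lamp1 and Mcoln1, the pump subunits Atp6v0d1 and Atp6v1a, and the hydrolases Gla, Arsa, Gaa, Glb1 and Naglu.

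The windows of the gene with the 10-base word and of the 3 genes with CACGTG that had the highest levels are shown 5′ to 3′ on the strand of the gene. Capitals mark each CACGTG, with the neighbouring bases where they complete a longer word. The Cln3 window is chr7:126583187-126583486 on the minus strand, and a window at another start of Cln3 held no CACGTG. The Lamp1 window is chr8:13158911-13159210 on the plus strand and holds CACGTG 4 times within its last 61 bases before the start. The Atp6v1a window is chr16:44139210-44139509 on the minus strand, and the Atp6v0d1 window is chr8:105566015-105566314 on the minus strand.
Cln3: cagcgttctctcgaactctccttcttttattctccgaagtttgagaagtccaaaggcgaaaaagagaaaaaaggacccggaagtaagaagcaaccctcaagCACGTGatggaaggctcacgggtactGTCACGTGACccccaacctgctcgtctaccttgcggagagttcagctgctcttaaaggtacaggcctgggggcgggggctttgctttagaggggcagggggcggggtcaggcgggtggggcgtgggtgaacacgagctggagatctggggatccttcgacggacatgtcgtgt
Lamp1: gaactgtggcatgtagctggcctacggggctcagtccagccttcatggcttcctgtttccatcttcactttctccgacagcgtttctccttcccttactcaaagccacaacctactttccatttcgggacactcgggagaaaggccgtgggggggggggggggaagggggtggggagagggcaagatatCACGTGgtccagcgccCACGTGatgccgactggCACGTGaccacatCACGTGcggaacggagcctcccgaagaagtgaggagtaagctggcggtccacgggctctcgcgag
Atp6v1a: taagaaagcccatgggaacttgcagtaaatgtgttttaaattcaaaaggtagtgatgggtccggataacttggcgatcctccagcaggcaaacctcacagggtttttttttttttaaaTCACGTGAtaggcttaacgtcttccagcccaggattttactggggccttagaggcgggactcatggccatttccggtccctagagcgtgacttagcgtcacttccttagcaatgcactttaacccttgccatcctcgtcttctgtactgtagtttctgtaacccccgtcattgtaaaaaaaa
Atp6v0d1: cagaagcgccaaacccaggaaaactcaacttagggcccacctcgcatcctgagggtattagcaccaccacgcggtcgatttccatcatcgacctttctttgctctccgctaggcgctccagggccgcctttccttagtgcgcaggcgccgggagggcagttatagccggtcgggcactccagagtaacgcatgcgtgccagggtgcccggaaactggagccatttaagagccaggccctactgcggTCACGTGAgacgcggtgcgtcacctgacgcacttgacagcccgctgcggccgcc
Of these 4 genes, Lamp1, Atp6v1a and Atp6v0d1 rose between precursors and immature macrophages, and Cln3 did not pass the test in any comparison. Of the 10 genes with CACGTG, 9 rose in that step, with a median log2 fold change of 1.91, and of the 28 matched genes without it 22 rose, with a median of 1.25. In the IL4 comparison 2 of these 10 genes rose, and 6 of the 26 tested genes without the word. Over all genes tested, 22.5% rose between precursors and immature macrophages and 10.5% rose with IL4. The difference between genes with and without the word was not tested. A match is a description of letters and was not tested as a binding site.

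Summed gene counts ran between 7897769 and 22167294 per library in the differentiation table and between 2408531 and 4214266 in the IL4 table, which was counted apart, so levels are compared only within a table. Levels are in CPM, gene counts relative to the TMM-scaled size of each library. The summed level of 10 macrophage markers was 2357 to 3139 CPM in precursors, 10080 to 13900 in immature and 12520 to 16170 in mature macrophages. The summed level of 12 neutrophil granule genes was 14240 to 21210 CPM in precursors, 146 to 208 in immature and 1.15 to 4.53 in mature macrophages, where 8 of the 12 had no read. Markers of progenitors, B cells, erythroid cells and mast cells were also highest in precursors, at 133 to 418 CPM per list, and at most 8.35 CPM per list later. The part that this change in cell types had in any difference between stages was not tested. In bulk RNA a higher level per cell and a larger share of expressing cells cannot be told apart.

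Together the 43 genes took 0.989% of the TMM-scaled library size in precursors, 3.32% in immature and 2.38% in mature macrophages. Their summed level was 9198 to 10262 CPM in precursors, 24910 to 42482 in immature and 19560 to 28096 in mature macrophages, and no precursor library overlapped a macrophage library. A single gene carried much of this. Psap, the precursor of the saposins that present lipids to hydrolases, took 37.2% ± 1.69 of the summed level in precursors, 42.5% ± 4.22 in immature and 20.8% ± 1.04 in mature macrophages (SD, n = 3). Without Psap the other 42 genes summed to 6206 ± 269 CPM in precursors, 18857 ± 3751 in immature and 18805 ± 3416 in mature macrophages. Hydrolases summed to 2127 ± 115, 6771 ± 1280 and 8838 ± 1997 CPM over the 3 stages, and membrane proteins to 1888 ± 102, 5515 ± 1740 and 4050 ± 746 CPM (SD, n = 3). In both classes the mature libraries overlapped the immature ones, and the difference between the classes was not tested.

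**Figure D1:**
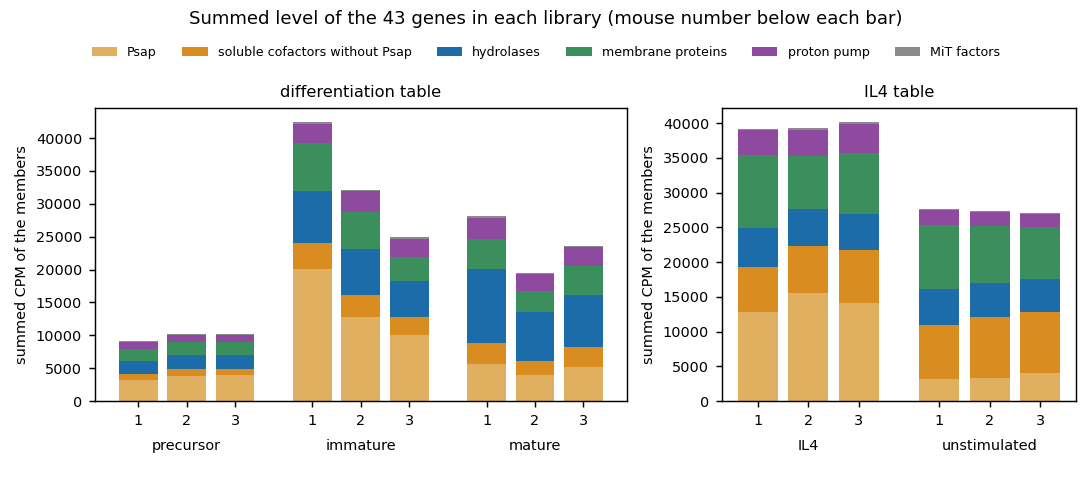
Summed CPM of the 43 genes in each library, stacked by class with Psap apart; each bar is 1 library, numbered by mouse, and the tables have separate axes. The 3 precursor bars are the lowest of the differentiation table, the Psap layer is tallest in immature macrophages, and with IL4 it stands at 12880 to 15620 CPM, against 3185 to 4000 CPM in unstimulated cells.

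In the first step, immature macrophages over precursors, 35 of the 43 genes rose and 1 fell in edgeR's quasi-likelihood test (adjusted p under 0.05 over 13359 genes), where 22.5% of all genes tested rose and 26.6% fell. The median log2 fold change was 1.32 over the 43 genes and −0.07 over all genes tested. Of the 43 genes, 32 were called and rose at least 2-fold, as did 1884 of the 13359 genes tested. Of all 43 genes, 35 had immature libraries wholly higher than the precursor ones and 1 wholly lower, where 29.4% of all genes lay wholly higher and 35.6% wholly lower. These were the called genes, and a call makes such a gap likely. The immature libraries differed among themselves: mouse 3 had the lowest level for 37 of the 43 genes, where it was lowest for 40.7% of genes at 10 CPM or more, and mouse 1 the highest for 27, against 40.4% of such genes. With each library left out in turn, 33 to 35 genes rose.

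Among the 20 hydrolases, 17 rose and 1 fell. Naglu, which trims heparan sulfate, stood at 21.1, 26.8 and 20.4 CPM in precursors, 164, 143 and 127 in immature and 182, 148 and 144 in mature macrophages. It had a log2 fold change of 2.67 ± 0.19 (SE, adjusted p = 3.97e-06) in the first step, the highest of the 43 genes, and its macrophage libraries lay far above those of precursors. Hexa, the alpha subunit of the ganglioside-cleaving hexosaminidase, stood at 195, 248 and 228 CPM in precursors, 1870, 1288 and 917 in immature and 2399, 821 and 1080 in mature macrophages. Its change was 2.60 ± 0.41 (adjusted p = 0.000464), and the macrophage libraries spread widely.

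The galactosidases moved together in the first step. Gla, the alpha-galactosidase that degrades globotriaosylceramide, stood at 32.8, 32.1 and 28.8 CPM in precursors, 165, 167 and 130 in immature and 239, 164 and 164 in mature macrophages. Glb1, the beta-galactosidase, stood at 28.9, 24.7 and 30.1 CPM in precursors, 164, 143 and 83.8 in immature and 147, 96.2 and 97.4 in mature macrophages. Their log2 fold changes were 2.30 ± 0.20 for Gla and 2.23 ± 0.27 for Glb1 (adjusted p = 1.18e-05 and 9.24e-05), with no overlap between precursors and immature macrophages.

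The other risen hydrolases ranged in log2 fold change from 1.06 for Idua, which acts on heparan and dermatan sulfate, to 2.05 for Lipa, the acid lipase that frees cholesterol from engulfed lipoprotein. Gusb, the beta-glucuronidase, averaged 879 CPM in immature macrophages and 241 in precursors, and Asah1, the acid ceramidase, 420 and 120 CPM. The sulfatase Arsa averaged 60.3 CPM in immature macrophages and 20.1 in precursors, the fucosidase Fuca1 231 and 90.4, the beta-mannosidase Manba 112 and 44.7, and the alpha-mannosidase Man2b1 945 and 442 CPM. The sialidase Neu1 averaged 274 CPM in immature macrophages and 119 in precursors, the thioesterase Ppt1 117 and 52.7, the sphingomyelinase Smpd1 59.4 and 27.3, the glycogen-degrading Gaa 155 and 71.6, and the peptidase Tpp1 203 and 82.9 CPM. The Tpp1 call was lost without precursor mouse 1, precursor mouse 3 or immature mouse 1 (highest adjusted p 0.0751).

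Arsb, the sulfatase of dermatan and chondroitin sulfate, was the hydrolase that fell. It stood at 38.7, 55.6 and 51.0 CPM in precursors, at 7.48, 14.2 and 12.1 in immature macrophages and at 10.1, 14.2 and 73.7 in mature macrophages. It fell by 2.11 ± 0.63 on the log2 scale in the first step (adjusted p = 0.0182, and 0.0531 without immature mouse 1), and mature mouse 3 lay above every other library. Of its annotated exon bases, 39.9% also lie in other genes on the opposite strand, chiefly Gm26527, and since the strand setting of the counts is not given, reads of these genes cannot be told apart. The same limit, at smaller shares, holds for genes that rose, among them Arsa (18.8%), Hexa (12.8%) and Lamp1 (9.31%). Ids and Galns, a pair of sulfatases, did not pass the test, with log2 fold changes of 0.11 ± 0.32 and 0.20 ± 0.21.

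Of the 4 soluble proteins, 3 rose in the first step. Psap (ENSMUSG00000004207, chr10:60277627-60302597 on GRCm38) stood at 3272, 3800 and 3975 CPM in precursors, 20120, 12840 and 10010 in immature and 5695, 3956 and 5207 in mature macrophages. All immature libraries lay above all others, and the log2 fold change over precursors was 1.96 ± 0.31 (adjusted p = 0.000522). In limma on the deposited log2 RPM it was 0.674 (adjusted p = 0.048). Grn, progranulin, a secreted glycoprotein that is cut into granulins in lysosomes, stood at 407, 582 and 430 CPM in precursors, 2634, 2283 and 2016 in immature and 1933, 1413 and 2349 in mature macrophages. Npc2, which hands cholesterol to the exporter Npc1, stood at 183, 224 and 171 CPM in precursors, 1016, 750 and 671 in immature and 1128, 648 and 533 in mature macrophages. The changes of Grn and Npc2 were 2.29 ± 0.26 and 2.08 ± 0.30 (adjusted p = 5.84e-05 and 0.000272). Gm2a, the ganglioside activator that serves Hexa, was at 304, 246 and 146 CPM in immature macrophages and 227, 223 and 272 in precursors, and its groups overlapped (log2 fold change −0.05 ± 0.25).

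Among the 9 membrane proteins, 7 rose. Lamp1, an abundant glycoprotein of the lysosomal membrane, stood at 603, 602 and 641 CPM in precursors, 3968, 2915 and 1937 in immature and 2382, 1474 and 1932 in mature macrophages. Its first step was a log2 fold change of 2.26 ± 0.29 (adjusted p = 0.000145), and the lowest macrophage library held more than any precursor library. Cd63, a tetraspanin of late endosomes and exosomes, stood at 40.9, 47.6 and 42.8 CPM in precursors, 316, 204 and 180 in immature and 191, 185 and 114 in mature macrophages. Its change was 2.41 ± 0.27 (adjusted p = 4.79e-05), with the caveat that 48.1% of the 31-base words of its transcripts also occur in other genes, chiefly the pseudogene Cd63-ps.

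The cystine exporter Ctns and the cholesterol exporter Npc1 followed. Ctns stood at 23.3, 19.3 and 21.4 CPM in precursors, 87.0, 82.0 and 50.6 in immature and 40.4, 34.4 and 45.9 in mature macrophages. Npc1 stood at 130, 152 and 136 CPM in precursors, 442, 444 and 304 in immature and 341, 275 and 272 in mature macrophages. Their changes were 1.78 ± 0.23 and 1.51 ± 0.20 (adjusted p = 0.000129 and 0.000155), and neither overlapped between precursors and immature macrophages. Scarb2, the receptor that carries glucocerebrosidase to lysosomes, stood at 137, 146 and 139 CPM in precursors, 305, 237 and 212 in immature and 335, 371 and 235 in mature macrophages. Lamp2 averaged 597 CPM in immature macrophages and 262 in precursors, and the cation channel Mcoln1 83.8 and 32.2 CPM. Laptm5, a membrane protein of blood cells, and Cln3, the protein lost in juvenile Batten disease, did not pass the test, at log2 fold changes of 0.65 ± 0.41 and −0.04 ± 0.18.

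All 7 pump genes rose in the first step, over a range of log2 fold change of 0.64 to 2.37. Atp6v1a, the catalytic subunit that splits ATP, stood at 248, 227 and 212 CPM in precursors, 1223, 1288 and 1040 in immature and 1461, 1160 and 983 in mature macrophages. Its change of 2.37 ± 0.21 (adjusted p = 1.35e-05) was the highest of the pump and was kept in mature macrophages, whose libraries overlapped those of the immature stage. Atp6ap1, an accessory subunit, stood at 145, 148 and 150 CPM in precursors, 431, 461 and 390 in immature and 600, 376 and 389 in mature macrophages.

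The V0 sector genes were also higher. Atp6v0c, whose product forms the proton-carrying ring, stood at 68.7, 93.6 and 70.3 CPM in precursors, 249, 202 and 156 in immature and 102, 73.1 and 216 in mature macrophages. Atp6v0d1, which couples the ring to the central stalk, stood at 111, 128 and 106 CPM in precursors, 262, 288 and 244 in immature and 189, 178 and 204 in mature macrophages. Their first-step changes were 1.38 ± 0.36 and 1.20 ± 0.16 (adjusted p = 0.00845 and 0.000158), and 35.2% of the 31-base words of Atp6v0c occur in other genes, chiefly Atp6v0c-ps2. Atp6v0a1, the subunit that holds the proton path, stood at 112, 115 and 127 CPM in precursors, 197, 221 and 208 in immature and 237, 164 and 330 in mature macrophages. Atp6v1b2, the partner of the catalytic subunit, had the lowest change of the pump, 0.64 ± 0.19 (adjusted p = 0.0167), at 513, 566 and 509 CPM in immature macrophages and 360, 358 and 304 in precursors, and it lost the call without precursor mouse 3, without immature mouse 2 and in limma on the deposited log2 RPM (highest adjusted p 0.0634).

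**Figure D2:**
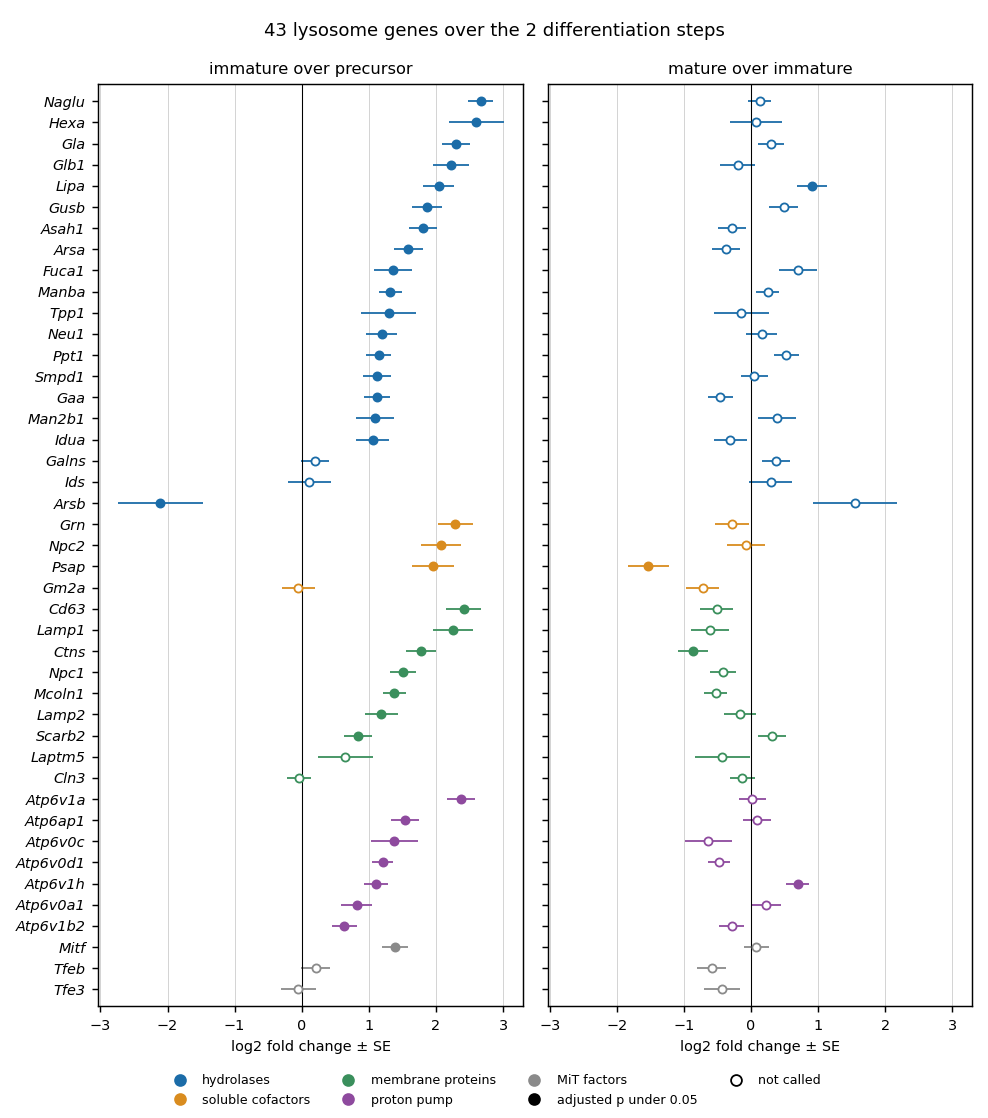
Log2 fold change ± SE of each of the 43 genes for immature over precursor cells and for mature over immature macrophages, ordered by class; filled points passed an adjusted p of 0.05. In the first step 35 filled points lie right of 0 and Arsb lies left of it, and in the second step 2 filled points lie on each side.

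In the second step, mature over immature macrophages, 2 genes rose, 2 fell and 39 did not pass the test, where 7.52% of all genes rose and 7.38% fell. The median log2 fold change of the 43 genes was −0.13. Psap had the lowest value, falling by 1.53 ± 0.31 on the log2 scale (adjusted p = 0.00817), and its mature libraries lay below all immature ones and overlapped those of precursors only at the lowest (3956 CPM). Ctns fell by 0.86 ± 0.22 (adjusted p = 0.0253), with no overlap. Lipa stood at 2982, 2273 and 2279 CPM in mature macrophages, 1350, 1547 and 1132 in immature macrophages and 284, 389 and 302 in precursors. It rose by 0.90 ± 0.22 in the second step (adjusted p = 0.0217), so each stage lay above the one before. Atp6v1h, the V1 subunit that regulates ATP splitting, did the same, at 275, 239 and 234 CPM in mature macrophages, 136, 150 and 176 in immature macrophages and 83.6, 67.6 and 63.6 in precursors (second step 0.70 ± 0.18, adjusted p = 0.023).

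The Psap call held in all 12 alternatives computed for it. Those of Lipa, Ctns and Atp6v1h were each lost in 5 to 7 of 12, with highest adjusted p-values of 0.0684, 0.111 and 0.106. With mouse number as a block, Atp6v1h and Ctns had adjusted p = 0.0532 and 0.0511.

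Hydrolases other than Lipa spread on both sides of 0 in this step, with positive values for 14 of the 20, none of them called except Lipa. Of the 9 membrane proteins, 8 had negative values, 1 of them called. The mature libraries also differed among themselves. Mature mouse 1 was more than 1.5 times both others for 7 of the 43 genes (Arsa, Atp6ap1, Fuca1, Glb1, Hexa, Neu1 and Npc2), where 5.26% of genes at 10 CPM or more were. It was the highest for 24 of the 43, against 36.2% of such genes. Mature mouse 3 was more than 1.5 times both others for another 7 genes, where 10.9% of such genes were. These 7 genes, like those of mouse 1 named after their values were seen, were Arsb, Tpp1, Ids, Idua, Laptm5, Tfe3 and Atp6v0c. Tpp1, for example, was at 99.5, 109 and 343 CPM in mature macrophages, and without mature mouse 3 it fell by 0.96 against immature macrophages (adjusted p = 0.00982), and Atp6v0c by 1.21 (adjusted p = 0.012).

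The difference between the steps was tested directly, as the second change minus the first. It was negative and called for 25 of the 43 genes and positive and called for 1 (Arsb), where 12.5% and 9.33% of all genes were called in these directions. Psap had the lowest value (−3.49 ± 0.50, adjusted p = 0.00098, and −1.919 in limma on the deposited log2 RPM), followed by Cd63 at −2.93 ± 0.42 and Lamp1 at −2.87 ± 0.47. For Lipa the difference was −1.14 ± 0.38 and did not pass (adjusted p = 0.0526). Without immature mouse 2 the count of negative differences was 16, and the Arsb call was lost without any 1 of the 6 precursor or immature libraries.

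Over both steps, mature macrophages against precursors, 33 of the 43 genes rose and 1 fell, where 25.8% of all genes rose and 28.5% fell. The genes with the highest changes were Lipa at 2.95 ± 0.24 (adjusted p = 4.63e-06), Naglu at 2.79 ± 0.19, Hexa at 2.68 ± 0.41 and Gla at 2.60 ± 0.21. Gm2a was the gene that fell, at 148, 121 and 154 CPM in mature macrophages and 227, 223 and 272 in precursors (−0.77 ± 0.25, adjusted p = 0.0224, and 0.0785 at the highest with 1 library left out). Psap, which had risen and then fallen, did not differ between mature macrophages and precursors beyond the threshold (0.43 ± 0.30, adjusted p = 0.25). Galns rose in this comparison alone (0.58 ± 0.21, adjusted p = 0.0359), a call lost in 8 of 12 alternatives. Without mature mouse 3, Tpp1 lost its call (0.34, adjusted p = 0.141) and Arsb gained one as lower (−1.995, adjusted p = 0.00052).

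Of the 3 transcription factors, Mitf rose in the first step. It stood at 39.9, 35.8 and 28.2 CPM in precursors, 101, 90.5 and 82.6 in immature and 116, 92.3 and 81.5 in mature macrophages, a first-step change of 1.40 ± 0.20 (adjusted p = 0.000229) with no overlap, and 0.08 ± 0.19 in the second step. Tfeb stood at 37.6, 44.99 and 53.2 CPM in precursors, 57.9, 53.9 and 44.8 in immature and 43.03, 35.0 and 26.3 in mature macrophages. Its mature libraries lay below all immature ones, but the change of −0.59 ± 0.22 did not pass the test (adjusted p = 0.0969). Tfe3 stood at 100, 111 and 107 CPM in precursors, 120, 108 and 79.2 in immature and 59.5, 56.4 and 112 in mature macrophages. Its mature mouse 3 lay slightly above the precursor libraries. Without that library Tfe3 fell by 0.82 against immature macrophages (adjusted p = 0.0184) and by 0.86 against precursors (adjusted p = 0.00414), and with it neither comparison passed.

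**Figure D3:**
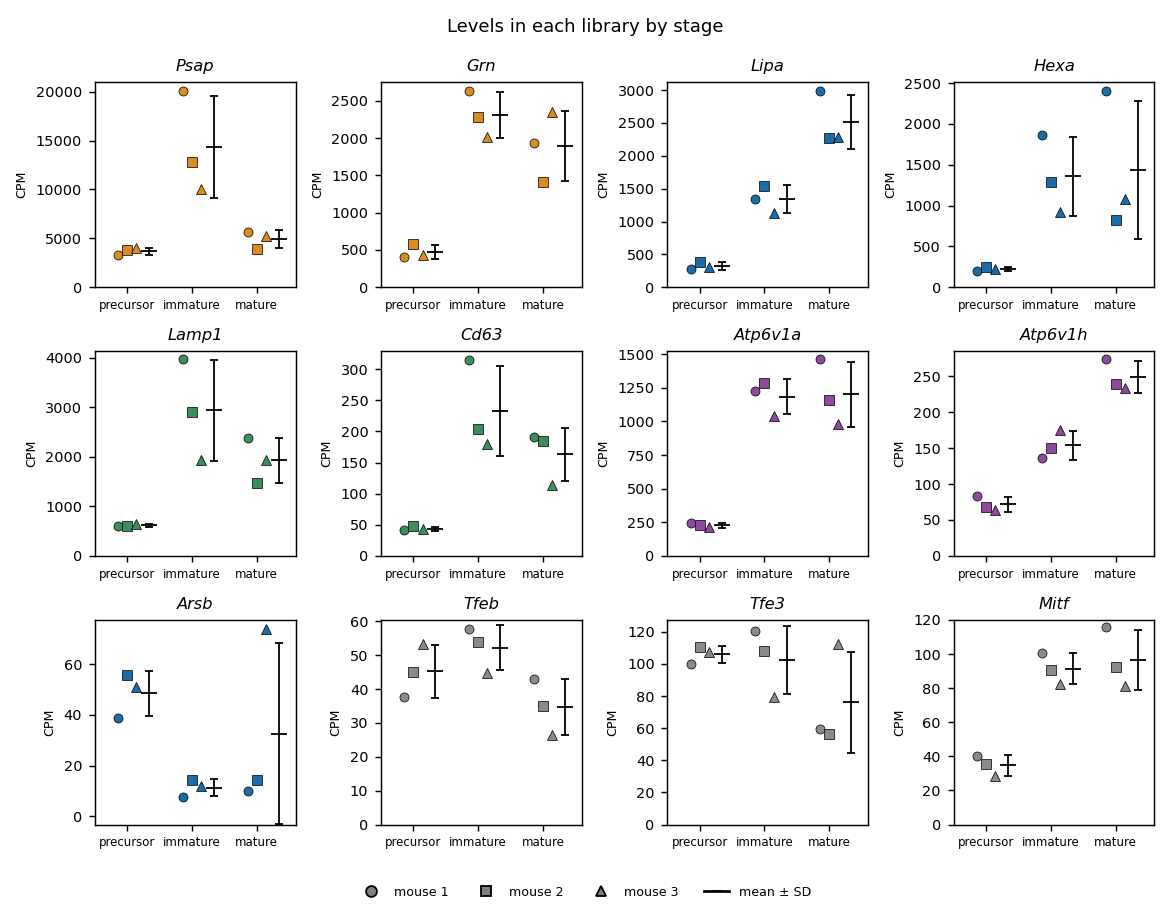
CPM in each library by stage for 12 of the genes; marker shape gives the mouse, the bar gives the mean ± SD (n = 3), and the Arsb axis runs below 0 to hold its bar. Psap peaks in immature macrophages, Lipa and Atp6v1h are higher at each later stage, and mature mouse 3 lies far above the other mature libraries for Arsb and Tfe3.

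Levels of different genes were compared as CPM per kb of annotated exon. Psap led at each differentiation stage, with 1342 ± 133 CPM per kb in precursors, 5220 ± 1901 in immature and 1805 ± 327 in mature macrophages. Lamp1 came second, with 230 ± 8.43, 1099 ± 380 and 721 ± 170 CPM per kb over the 3 stages. In mature macrophages Hexa was at 718 ± 424, Grn at 546 ± 135 and Lipa at 370 ± 60.1 CPM per kb. Differences between genes were not tested. With IL4, Psap led at 5174 ± 500 CPM per kb and Grn followed at 1644 ± 232, and in unstimulated cells Grn led at 2057 ± 210 and Psap followed at 1277 ± 158 (SD, n = 3). With the longest coding transcript as the length, Psap kept the lead in the stages and with IL4, but in unstimulated cells it ranked 4 behind Grn, Laptm5 and Cd63. By that length Laptm5 at 412.6 CPM per kb stood above Lamp1 at 276.0 in precursors, and Lipa at 845.9 stood beside Lamp1 at 865.6 in mature macrophages. With IL4 Grn then ranked 4 at 2441 CPM per kb, behind Laptm5 at 2685 and Cd63 at 2552.

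In the IL4 comparison 41 of the 43 genes were tested. Atp6v0c had 0 of 20548840 reads over the 6 libraries, which allows up to 0.146 CPM by counting error alone, and Idua had 1 read. Both were present in mature macrophages of the differentiation table, at 73.1 to 216 and 30.7 to 51.9 CPM, so nothing is read from their absence here. Of the 41 genes, 9 rose with IL4, 1 fell and 31 did not pass the test, where 10.5% of all 8936 genes tested rose and 10.3% fell. Of the 41 genes, 13 had IL4 libraries wholly higher than the unstimulated ones and 4 wholly lower, where 18.4% of all genes lay wholly higher and 17.4% wholly lower. The 10 called genes were among these, which the call itself makes likely. The median log2 fold change was −0.05 over the 41 genes and 0.01 over all genes tested. The 43 genes held 3.95% of the TMM-scaled library size with IL4 and 2.73% in unstimulated cells. Psap took 35.9% ± 3.55 of their summed level with IL4 and 12.8% ± 1.72 without (SD, n = 3). The sum of the other 42 genes was 25322 ± 1496 CPM with IL4 and 23817 ± 697 in unstimulated cells. The 5 genes of the IL4 response list that were present summed to 21190, 7504 and 6297 CPM with IL4 and to 2265, 1337 and 1832 CPM in unstimulated cells. Of the 4 of them tested 3 rose and Mrc1 fell, and Retnla alone gave 18630, 4735 and 3110 CPM of the sum with IL4 and 0 reads in unstimulated cells. The 9 macrophage markers present summed to 7179 to 8415 CPM with IL4 and 8899 to 12350 CPM in unstimulated cells, and of the 8 tested 0 rose and 4 fell (Fcgr1, Mertk, C1qb and Mrc1). The part of this in the values of the lysosome genes was not tested. Markers of B cells, erythroid cells and mast cells had no read in either group.

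The soluble proteins held the highest change. Psap stood at 12880, 15620 and 14090 CPM with IL4 and 3185, 3331 and 4000 in unstimulated cells, a log2 fold change of 2.02 ± 0.19 (adjusted p = 3.43e-05). Each IL4 library held more than 3 times the highest unstimulated one. Gm2a stood at 248, 214 and 338 CPM with IL4 and 150, 97.9 and 126 in unstimulated cells, a change of 1.096 ± 0.22 (adjusted p = 0.00476) with no overlap. Grn and Npc2 did not pass, at 4904, 5715 and 6518 CPM with IL4 and 6405, 7174 and 7860 without for Grn, and log2 fold changes of −0.32 ± 0.19 and −0.42 ± 0.28.

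Of the 6 pump genes tested 3 rose. Atp6v0a1 stood at 1795, 2213 and 2632 CPM with IL4 and 764, 864 and 806 in unstimulated cells (1.45 ± 0.19, adjusted p = 0.000283). Atp6v1b2 stood at 413, 361 and 363 CPM with IL4 and 207, 118 and 136 without (1.30 ± 0.22, adjusted p = 0.00152). In both the groups lay well apart. Atp6v1a stood at 581, 451 and 504 CPM with IL4 and 362, 343 and 249 without (0.69 ± 0.19, adjusted p = 0.0264), a call lost in 5 of 11 alternatives, at most at adjusted p = 0.0909. Atp6v1h, Atp6v0d1 and Atp6ap1 did not pass, at log2 fold changes of 0.54, −0.17 and −0.19.

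Of 9 membrane proteins 1 rose, Cd63, at 3202, 2499 and 2788 CPM with IL4 and 1365, 1380 and 1839 in unstimulated cells (0.89 ± 0.19, adjusted p = 0.00658, and 0.0763 in limma on the deposited log2 RPM). Lamp1 stood at 2112, 1337 and 1388 CPM with IL4 and 2173, 1919 and 1428 without, and its groups overlapped (−0.19 ± 0.23). The other membrane proteins ranged from −0.45 for Cln3 to 0.18 for Lamp2.

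Among the 19 hydrolases tested, Gla rose and Ppt1 fell. Gla stood at 207, 191 and 216 CPM with IL4 and 124, 121 and 122 in unstimulated cells (0.75 ± 0.15, adjusted p = 0.00521). Ppt1, which removes palmitate from proteins, stood at 183, 146 and 136 CPM with IL4 and 299, 262 and 239 without (−0.78 ± 0.18, adjusted p = 0.00954, and 0.0528 without IL4 mouse 2). Neither gene overlapped between the groups. Lipa stood at 2205, 2175 and 1936 CPM with IL4 and 1423, 1806 and 1178 without, also with no overlap, and did not pass the test (0.52 ± 0.19, adjusted p = 0.0845). The other 16 hydrolases ranged from −0.49 for Ids to 0.35 for Galns.

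Tfeb and Mitf rose and Tfe3 did not pass the test. Tfeb stood at 106, 142 and 143 CPM with IL4 and 45.7, 67.5 and 56.9 in unstimulated cells (1.21 ± 0.20, adjusted p = 0.0016), and Mitf at 76.4, 83.3 and 88.1 with IL4 and 58.8, 51.4 and 43.8 without (0.69 ± 0.18, adjusted p = 0.0196, and 0.0737 at the highest with 1 library left out). Tfe3 stood at 48.6, 48.6 and 55.9 CPM with IL4 and 68.2, 44.8 and 52.2 without (−0.12 ± 0.20).

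With mouse number as a block, 11 genes rose and 3 fell with IL4. The block also raised the number of calls over all genes in both directions, with the counts given in the closing section. The added calls were Lipa (0.54, adjusted p = 0.0123) and Atp6v1h (0.54, adjusted p = 0.022) as higher, and Ids (−0.48, adjusted p = 0.0213) and Arsb (−0.42, adjusted p = 0.0449) as lower. Of the 35 genes that rose in the first differentiation step, 33 were tested with IL4. Without the block 7 of them rose, 1 fell and 25 did not pass, where 10.5% of all genes tested rose and 10.3% fell. Gm2a and Tfeb, which had not risen in that step, were the other 2 genes that rose.

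**Figure D4:**
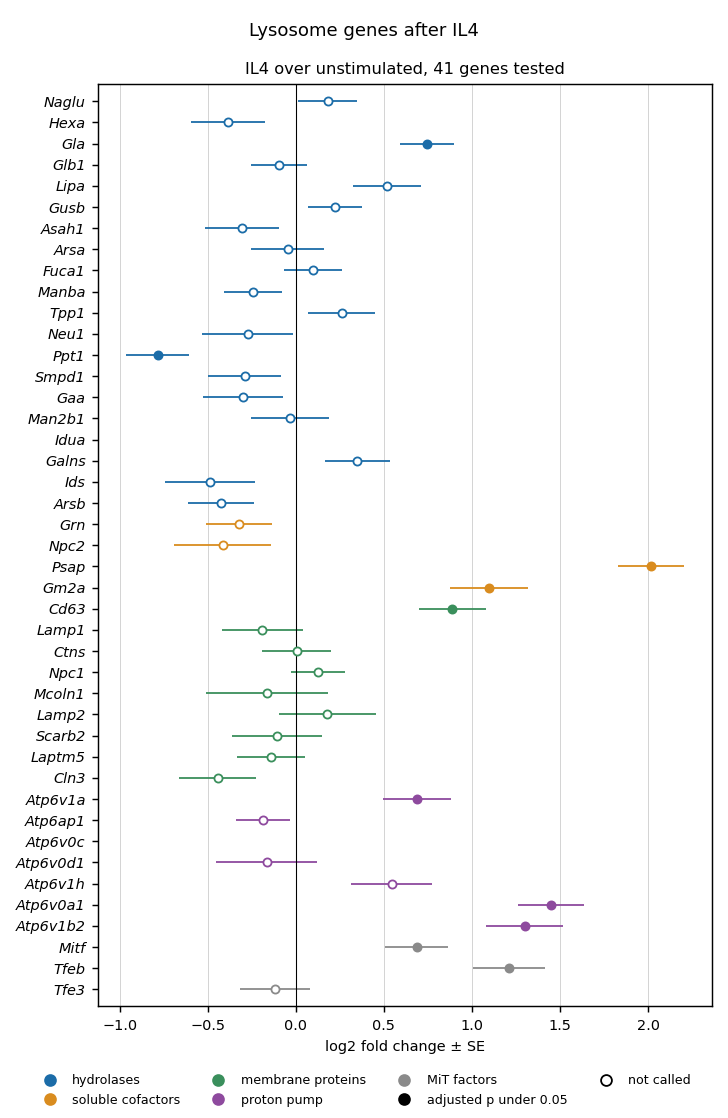
Log2 fold change ± SE of the 41 genes tested for IL4 over unstimulated macrophages, in the order of the first differentiation step within each class; filled points passed an adjusted p of 0.05. The 9 filled points right of 0 are led by Psap at 2.02, and Ppt1 is the filled point left of 0; Idua and Atp6v0c were not tested and have no point.

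**Figure D5:**
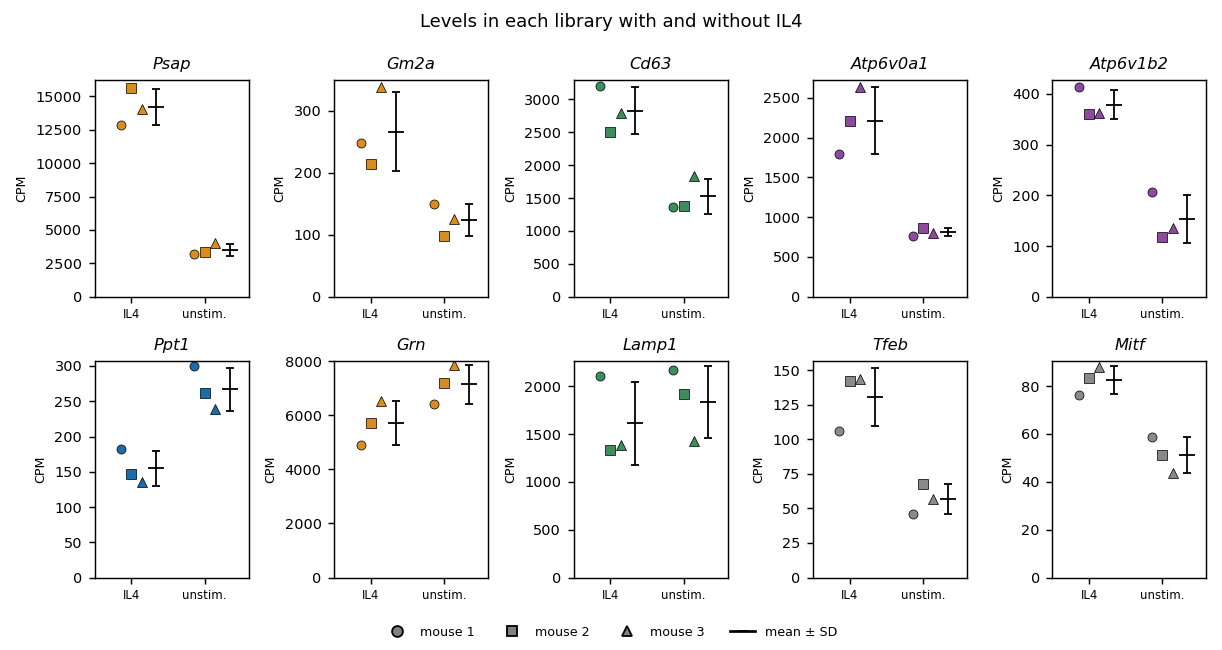
CPM in each library with IL4 and without for 10 of the genes; marker shape gives the mouse and the bar the mean ± SD (n = 3). The groups do not overlap for Psap, Gm2a, Cd63, Atp6v0a1, Atp6v1b2, Ppt1, Tfeb and Mitf, and they overlap for Grn and Lamp1.

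Lysosome genes outside the 43 were described from 5 lists. In the first step, 22.5% of all genes tested rose and 26.6% fell. There 14 of 18 other hydrolases, 16 of 24 other membrane proteins, 10 of 12 other pump subunits and 14 of 22 genes of sorting to lysosomes rose, and 0, 0, 1 and 1 of them fell. Hgsnat, which acetylates heparan sulfate for Naglu, had a log2 fold change of 3.21 ± 0.32 and Pla2g15, the lysosomal phospholipase, 2.96 ± 0.23. The cation channel Mcoln2 and the sialic acid exporter Slc17a5 rose by 3.83 ± 0.30 and 2.94 ± 0.25, and Tcirg1, the a3 subunit of the pump, by 2.06 ± 0.19. The list for control of the transcription factors also holds the related factor Tfec. Of its 22 genes, 10 rose and 1 fell, led by Rragc (2.39 ± 0.20), a GTPase of the lysosomal nutrient signal, and Fnip2 (2.10 ± 0.21), a partner of folliculin.

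In the second step, where 7.52% of all genes rose and 7.38% fell, 3 of 18 other hydrolases rose and 1 fell, and of 24 other membrane proteins 0 rose and 4 fell. Of 12 other pump subunits 0 rose and 1 fell, and of 22 sorting genes 3 rose and 1 fell. Of the 22 genes listed for control of the transcription factors 1 rose and 3 fell, Tfec among those that fell. Tfec, a further member of the TFEB family found in macrophages and counted in that list, stood at 41.3, 37.2 and 47.1 CPM in precursors, 64.4, 60.2 and 52.5 in immature and 28.5, 28.4 and 29.7 in mature macrophages. It rose by 0.50 ± 0.16 in the first step and fell by 1.03 ± 0.16 in the second (adjusted p = 0.0262 and 0.00238). With IL4 it did not pass the test (0.17 ± 0.17).

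With IL4, 5 of 10 other pump subunits rose and none fell. Atp6v0d2, the d subunit form known from osteoclasts, stood at 2065, 1579 and 1628 CPM with IL4 and 33.96, 86.8 and 34.5 in unstimulated cells, a log2 fold change of 5.11 ± 0.38 (adjusted p = 7.96e-06). In differentiation it stood at 1.38, 2.34 and 1.69 CPM in precursors, 68.4, 26.7 and 13.4 in immature and 88.3, 12.4 and 89.6 in mature macrophages, a first-step change of 4.30 ± 0.80, with mature libraries that spread widely. Of 18 other hydrolases 2 rose and 4 fell with IL4, beside 10.5% and 10.3% of all genes. Of 17 tested genes listed for control of the transcription factors 2 rose and 1 fell, and of 22 sorting genes 0 were called by edgeR, with 1 at an unadjusted p under 0.05. Dnase2a, the acid DNase, stood at 503, 557 and 584 CPM with IL4 and 199, 241 and 239 without. Sgsh, the heparan sulfamidase, stood at 15.5, 18.2 and 23.7 CPM with IL4 and 68.9, 49.4 and 94.8 without, a fall of 1.90 ± 0.27. Among other membrane proteins 3 of 21 rose, led by the peptide and histidine transporter Slc15a3 (2.25 ± 0.23) and the channel Tpcn2 (1.67 ± 0.18), and Slc11a1, the metal transporter of phagosomes, fell by 1.01 ± 0.17.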

How the data were processed

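RNA was prepared on columns with DNase from 1 µg of total RNA and sequenced on the Ion Torrent platform, per the labels' protocols. Reads were aligned with HISAT2 2.0.5 and the submitters' processing notes also name edgeR, and list GRCm38.p6 as well as GRCm39.p6. No source used here gives the counting tool or its strand setting. The deposited tables hold unscaled counts for 34245 genes in the differentiation libraries and for 25965 genes in the IL4 libraries. Beside them the authors deposited log2 RPM values and lists of their own comparisons with p-values. After sorting, the deposited log2 values of any pair of libraries differed by at most 1.65 among differentiation libraries and 0.773 among the IL4 and unstimulated ones; no source used here names their scaling. Of the rows, 83 and 56 carry no gene ID.

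From the deposited counts, edgeR 4.0.16 in R 4.3.3 fitted its quasi-likelihood model with TMM scaling after filterByExpr with a count minimum of 10, which left 13359 and 8936 genes. All 9 differentiation libraries shared 1 fit, and all 6 IL4 libraries another. Benjamini-Hochberg adjustment ran over all genes tested, and a call is an adjusted p under 0.05. The code was tested on simulated data with known changes. The members and all gene lists were chosen with earlier results of these data known. Genes with values in every library were, per class and comparison, up to 4 called genes with the largest change and at least 10 CPM, and Tfeb, Tfe3 and Mitf; from other lists up to 3 called genes of at least 5 CPM, taken by lowest p, with Tfec and Atp6v0d2. Tpp1, Arsb, Lipa and Grn values outside that rule were chosen after they were seen.

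No replicates agreed within sampling noise (chi-square per degree of freedom 6.39 to 101). P-values set each group difference against the spread between libraries, which is pooled over the groups of a fit and moderated over all genes. Deviations of same-numbered IL4 and unstimulated libraries from their group means correlated at 0.175 to 0.591 (3 of 3 pairs over 0.1). Differently numbered pairs gave −0.487 to 0.247 (1 of 6 over 0.1), and the column names of that table carry other numbers. Same-numbered differentiation libraries gave −0.129 to 0.165 (1 of 9 pairs over 0.1). Since deviations are taken from each group mean, the correlations are tied to one another. Alternatives were RLE scaling, no filter, the mouse number as a block, DESeq2 1.42.0, limma 3.58.1 on the deposited log2 values, the compared libraries alone, and each library left out. Levels per kb used the union of exons of the GRCm38 annotation. A result for 1 gene of the other lysosome lists is not reported here.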

Additional observations from a re-analysis of the deposited data

How the results depend on the processing

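Of the calls on the 43 genes, 33 of 36 in the first step, 1 of 4 in the second, 29 of 34 over both steps, 6 of 10 with IL4 and 16 of 26 for the step difference held in every alternative run. With each library left out, 33 to 35 genes rose and 0 to 1 fell in the first step, 30 to 34 rose and 0 to 3 fell over both steps, and 7 to 9 rose and 0 to 1 fell with IL4. In the second step 2 genes rose and 2 fell; these counts were 1 and 1 with the replicate block, 1 and 1 in limma on the deposited log2 values, 0 and 1 with the 6 libraries compared alone, 0 to 3 and 1 to 5 with a library left out, and 5 fell in DESeq2. For the step difference, with a library left out 16 to 28 genes were lower and 0 to 1 higher, and limma called 0 higher. With the replicate block 11 genes rose and 3 fell with IL4, against 9 and 1 without it, and all genes higher and lower were 1447 and 1435, against 940 and 918. Over all genes in the second step, 1005 rose and 986 fell, against 633 and 612 with the 6 libraries alone, and 423 to 1266 and 584 to 1436 with a library left out; for the step difference 1247 were higher and 1667 lower, against 508 to 1508 and 906 to 1905. Limma on the deposited log2 values, which changes both the test and the scaling, turned the balance over all genes in the first step to 3662 higher and 2969 lower, against 3009 and 3559, and over both steps to 3958 and 3321, against 3445 and 3810. Signs turned for genes that were not called: with a library left out, Tfe3 ranged from −0.172 to 0.158 in the first step (positive without immature mouse 3) and from −0.237 to 0.067 with IL4 (positive without unstimulated mouse 1), and Mitf from −0.072 to 0.19 in the second step (negative at −0.029 without immature mouse 3 and at −0.072 without mature mouse 1). The cause of these changes was not tested. The IL4 libraries were shallower and their table had fewer genes, and how each bears on the number of genes tested was not examined.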
